A study of Mus musculus with 2 samples.

Results

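The spliceosome and SR protein genes were taken as all genes whose symbol in the array's platform annotation begins with Sf3a, Sf3b, Snrp, Srsf, Lsm, U2af or Prpf and, except in the Snrp and U2af names, goes on with a digit. The pattern found 57 genes of the 19505 that the arrays name, each with 1 probe set. All 57 passed the level filter, which kept the 10881 genes whose mean of the 2 arrays (log2) was at least 2.88, the median over probe sets. By name they were 9 Sf3a and Sf3b genes, 2 U2af genes, 11 Snrp genes, 13 Lsm genes, 12 Prpf genes and 10 Srsf genes. Other genes of these families, for which the annotation gave no symbol, were not analysed here. The negative control level used here is the 95th percentile of 5222 negative control probe sets, 4.80 for wild type and 4.73 for the other array, and the higher value serves for both. Of the 57 members 44 were at or above it on both arrays, 11 were under it on both and are called near background, and Prpf6 and Prpf38a were under it in wild type alone. For these 2 the fold is stated as "at least", taken from that level.

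RNA came from innate lymphoid cell (ILC) progenitors of the mouse, sorted as lineage-negative cells with CD127, the integrin α4β7 and intermediate c-Kit and Sca-1. One sample was labelled wild type and the other Yeats4 knockout, and per the design text the wild-type mice were littermates of the mice with the deletion. The sources used here do not give how the deletion was made, in which cells it acts, the age of the mice or how many contributed. Each genotype has 1 array. No replicate error and no test can therefore be given, and every difference below is one between these 2 arrays. All 10 genes of a list for the sorted stage, among them Il7r, Kit, Itga4 and Id2, passed the level filter. Of these 9 were above the negative control level on both arrays. The exception was Zbtb16, with 5.04 in wild type and 4.68, under that level, in the other sample. The list's median levels were 7.10 and 6.46, under those of a list of 10 neutrophil genes, 10.22 and 10.06. Yeats4, a reader of acetylated histones, read 5.96 in the wild-type sample and 5.90 in the other, and where its probes lie relative to the deletion is not known here, so the label is not checked by it.

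The spliceosome removes introns from pre-mRNA. Small nuclear ribonucleoproteins (snRNPs) named U1, U2, U4, U5 and U6 assemble on each intron in turn: U1 pairs with the 5′ splice site, the U2AF dimer and then U2 with its SF3A and SF3B subcomplexes take the 3′ end and the branch point, and the U4/U6.U5 tri-snRNP brings the parts of the catalytic centre. U1, U2, U4 and U5 carry a ring of Sm proteins, U6 a ring of Lsm proteins. SR proteins bind exons through RNA recognition motifs and recruit the early factors through domains rich in arginine and serine. The core proteins of this machinery are made in nucleated cells generally, blood progenitors included. Of the 57 genes 11 were near background, so these arrays do not show that they are expressed in the sorted cells.

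Most of the 57 genes read slightly higher on the array labelled knockout, and few stood far from other genes of their level. The difference, knockout minus wild type on the log2 scale, was above 0 for 49 members and below 0 for 8, where 58.2% of all genes past the filter lay above 0. The median difference of the members was 0.21 (order-statistic 95% interval over members 0.14 to 0.25, which covers the scatter between genes and not between mice), a fold of 1.15. The median of all 10881 genes was 0.08. Among the 44 members above the negative control level on both arrays, 40 were higher on the array labelled knockout and the median was 0.19. Of all 5212 such genes 66.6% were higher, and their median was 0.13. Differences ran from -0.72 for Lsm10 to 1.10 for Prpf6. The plot of both values for every gene shows the red points of the second array to the right of the open points in nearly every row, by short distances.

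**Figure D1:**
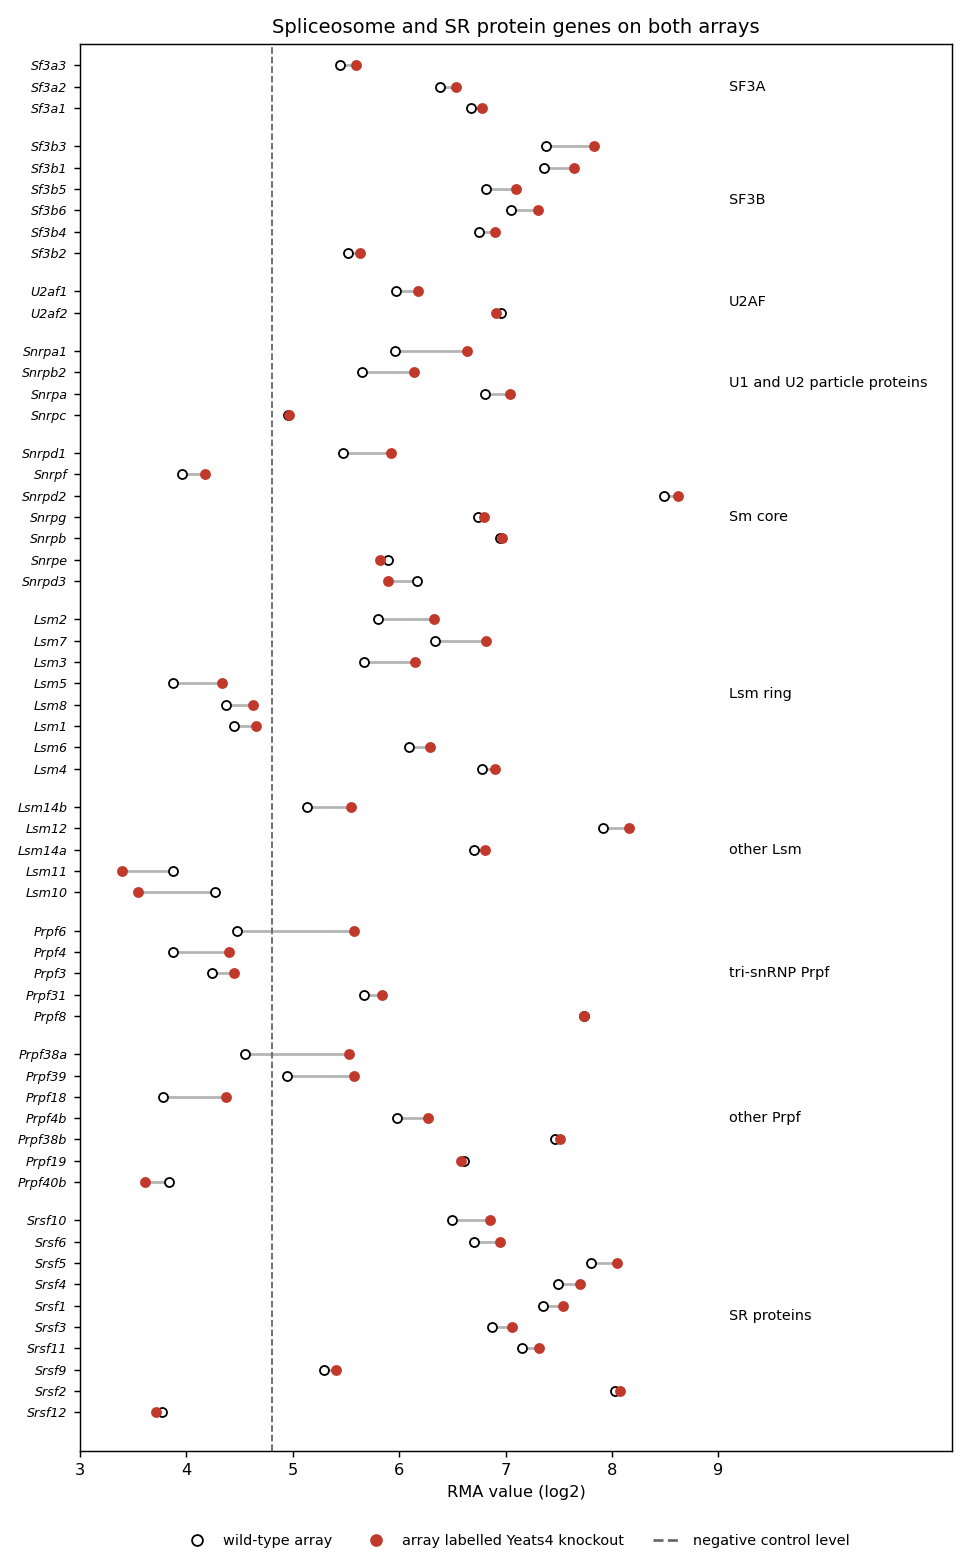
RMA values (log2) of the 57 spliceosome and SR protein genes on the wild-type array (open circles) and the array labelled Yeats4 knockout (red), grouped by role and ordered by difference within each group. The dashed line is the negative control level of 4.80, and 49 of the 57 genes lie further right on the second array.

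Several marker lists differed between the same arrays, and the arrays measure each sorted sample as a whole, so fewer cells of a type and less RNA per cell cannot be told apart. The 13 T cell genes past the filter had a median level (log2) of 5.39 in wild type and 4.19 in the sample labelled knockout, and 12 were lower. Of these 13 genes 3 were near background and 7 were under the negative control level on 1 array, so most of these differences are bounds; the 3 above it on both arrays had a median difference of -0.68. The 10 B cell genes had medians of 7.23 and 6.50 and all were lower (2 near background, 2 under the level on 1 array), while the 11 macrophage genes had medians of 5.17 and 6.04 and all were higher (4 near background). The eosinophil list read 6.36 and 4.98 (7 genes, 5 lower, 3 of the 7 above the level on both arrays), the neutrophil list 10.22 and 10.06 (10 genes, 6 lower) and the erythroid list 4.99 and 4.56 (5 genes, 3 lower, 2 of the 5 above the level on both arrays). Of the 10 neutrophil genes 4 were higher, among them Ctsg (0.72) and Prtn3 (0.55), and 6 lower, among them Ltf (-0.55) and Mmp9 (-0.50). More than 1 local spread above the local median lay 3 of these genes, and 5 lay more than 1 below it. The genes of the sorted stage differed in both directions, with 4 of 10 higher and 6 lower. Id2, a regulator of ILC development, read 7.88 and 9.11, and Kit 7.12 and 7.77, while Nfil3 read 9.43 and 8.49, Il7r 7.07 and 6.38 and Ets1 7.22 and 6.55. Of these 10 genes 6 lay more than 1 local spread below the local median and 2 above it. The 12 mitotic genes measured were all higher, with a median difference of 0.37, 0.21 after the loess correction. Of these 2 were near background and 1 was under the level on 1 array. The median of the 9 above it on both arrays was 0.31. Of the Y-linked genes Eif2s3y read 3.40 and 5.18, with the wild-type value under the negative control level. Its measured difference, 1.78, was the largest upward one of all genes past the filter. Uty read 2.51 and 4.05, near background, and Kdm5d, which did not pass the level filter, 1.62 and 3.22. The sex of the mice cannot be told apart from the genotype. The part of cell type makeup, of proliferation or of sex in the differences of the splicing genes was not tested.

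Most of the members' median difference was shared by other genes of the same level. Over all genes the median difference was -0.04 at mean levels between 2.88 and 4, 0.13 between 5 and 6 and 0.17 between 6 and 7, and 21 of the 57 members lie in the last of these bands. Each member was therefore also set against the 500 genes nearest in mean level, whose median is called the local median and whose scaled median absolute deviation the local spread. On this scale 35 members lay above the local median and 22 at or below it, where 49.8% of all genes lay above theirs, and the median distance from it was 0.06. After a loess correction of the difference on level the members' median was likewise 0.06, with 35 members above 0. The direction of the whole group was above 0 under each scaling tried, but its size was 0.21 as deposited, 0.12 when the arrays were centred on their medians and 0.08 with quantile normalization of the table. The excess was largest between mean levels of 5 and 6, where the 12 members had a median of 0.43 against 0.13 for the 2400 genes in that band, and 9 of the 12 were above the band's median. These 12 include Prpf6 and Prpf38a, which were under the negative control level in wild type. Between 4 and 5 the 8 members, all but Snrpc near background, had a median of 0.24 against 0.05. All 8 were above 0. Between 2.88 and 4 the 4 members, all near background, went the other way, with a median of -0.36 against -0.04 and none above 0. Between 6 and 7 the members' median was 0.19 against 0.17.

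Large differences were rare. By the measured values, low ones included, 1 of the 57 members differed 2-fold or more upwards (Prpf6), where 1.56% of all genes past the filter did, and none downwards, where 0.781% did. The wild-type value of Prpf6 was under the negative control level, from which its fold is at least 1.70, and no member reached 2-fold once lower values were set to that level. At 1.5-fold, 5 members were higher (Prpf6, Prpf38a, Snrpa1, Prpf39 and Prpf18) against 9.16% of all genes, and 1 was lower (Lsm10) against 5.16%. The members past 1.5-fold made up 8.77% and 1.75% of the 57. Prpf18 and Lsm10 were near background, and Prpf6 and Prpf38a were under the negative control level in wild type. Of the 44 members above that level on both arrays only Snrpa1 and Prpf39 were 1.5-fold higher, and none was 1.5-fold lower. Among all genes above it on both arrays the shares were 6.37% and 1.44%. More than 1 local spread above the local median lay 8 members, 14.0% of them, against 15.9% of all genes. Only 2 members, Lsm10 and Snrpd3, lay more than 1 local spread below it, which is 3.51% against 15.3%. Neither share was tested against that of other genes.

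**Figure D2:**
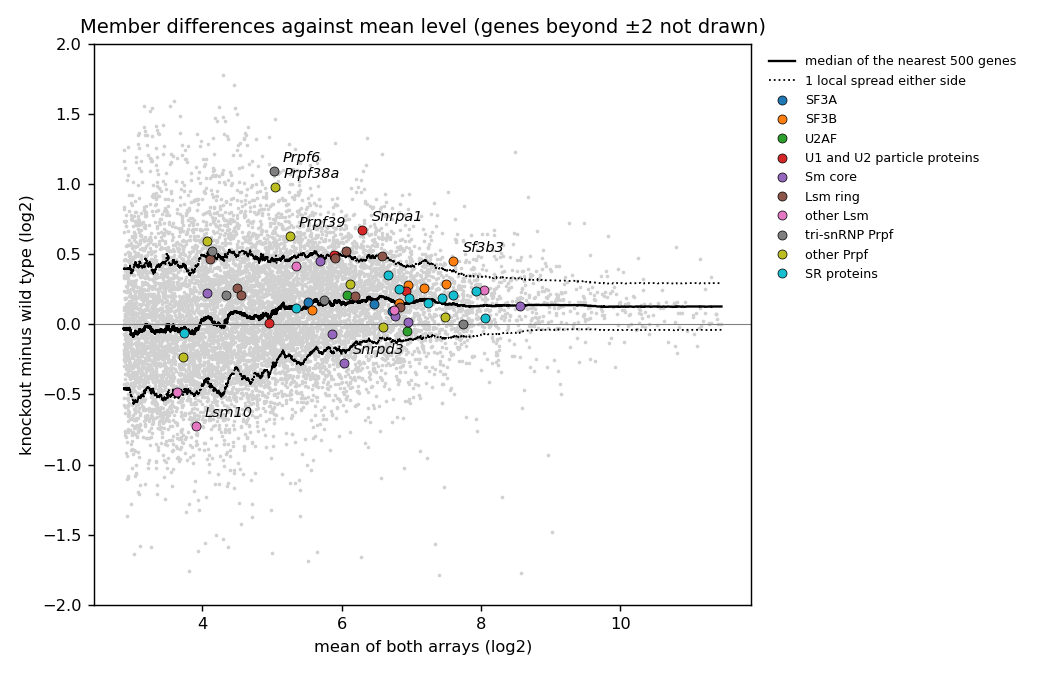
Difference (knockout minus wild type, log2) against the mean of both arrays (log2) for all genes past the filter (grey) and the 57 members, coloured by role; the solid line is the median of the nearest 500 genes and the dotted lines are 1 local spread from it. Most coloured points lie between the dotted lines, with Prpf6 and Prpf38a the furthest above and Lsm10 and Snrpd3 the members below the lower line.

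Among the proteins that recognise the 3′ end of the intron, the SF3B genes had the highest median. Sf3b3, a scaffold of the SF3B complex, read 7.38 in the wild-type sample and 7.83 in the one labelled knockout, which is 0.45 higher with a local spread of 0.23, and 49 of the 500 nearest genes differed by more in that direction. Sf3b1, the subunit that holds the branch point adenosine and is often mutated in myelodysplastic syndromes, read 7.36 and 7.65, and the small subunit gene Sf3b5 read 6.82 and 7.10. Both differences, 0.29 and 0.28, were within 1 local spread of the local median. Sf3b6 (0.26), Sf3b4 (0.15) and Sf3b2 (0.11) lay on the same side of 0. All 6 SF3B genes were above 0, with a median of 0.27 (0.11 to 0.45), 0.12 after the loess correction, and 4 of the 6 were above their local median.

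The SF3A genes, whose products form the neighbouring part of the U2 particle, lay close to other genes of their level. Sf3a3 read 5.44 and 5.60, Sf3a2 6.39 and 6.53, and Sf3a1 6.68 and 6.77. The 3 differences, 0.16, 0.14 and 0.10, spanned less than 1 local spread, and the median of 0.14 became -0.01 after the loess correction and -0.02 with quantile normalization. The U2AF dimer gave opposite signs. U2af1, the subunit that reads the AG at the 3′ splice site, read 5.97 and 6.18 (0.21), and U2af2, which binds the polypyrimidine tract, 6.96 and 6.91 (-0.05). Both lay within 1 local spread of their local medians.

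The proteins particular to U1 and U2 included the largest difference among the members above the negative control level on both arrays. Snrpa1, which encodes the U2 protein A′, read 5.96 in wild type and 6.64 in the sample labelled knockout, a 1.60-fold difference (0.68, local spread 0.29). Of the 500 genes nearest in level 25 differed by more in that direction. Its partner in the U2 particle is the B″ protein, and the gene for it, Snrpb2, read 5.65 and 6.14 (0.49, local spread 0.34). The U1 protein genes differed less, Snrpa with 6.80 and 7.04 (0.24) and Snrpc with 4.96 and 4.97 (0.01). The median of the 4 was 0.37 (range 0.01 to 0.68) as deposited and 0.22 after the loess correction, and all 4 lay above 0. Among these 4 the 2 genes for U2 proteins thus differed more than the 2 for U1 proteins, which was not tested. Other members did not keep this order. The U1-associated Prpf39 differed by 0.63, and the U2 genes of SF3A by 0.10 to 0.16 and of SF3B by 0.11 to 0.45.

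The Sm core, which is common to U1, U2, U4 and U5, differed in both directions. Snrpd1 read 5.47 and 5.92, a difference of 0.45 with a local spread of 0.34. Snrpd3 read 6.17 in wild type and 5.90 in the other sample, the lowest difference of any member above background on both arrays (-0.28, local spread 0.33), and 54 of the 500 nearest genes were lower. Snrpd1 and Snrpd3, which occupy the same ring in equal copies, differed in opposite directions. Snrpf, near background, read 3.96 and 4.18. The remaining members Snrpd2 (0.13), Snrpg (0.06), Snrpb (0.02) and Snrpe (-0.07) lay between these. The median of the 7 was 0.06 (-0.28 to 0.45), but -0.03 when centred on the median, -0.10 after the loess correction and -0.09 with quantile normalization, so no direction holds for the ring as a whole. Only 2 of the 7, Snrpd1 and Snrpf, were above their local median.

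The Lsm ring differed from the Sm ring in this respect, although that difference was not tested. Lsm2 to Lsm8 form the nuclear ring on U6, and Lsm1 takes the place of Lsm8 in the cytoplasmic ring that starts mRNA decapping. All 8 genes were higher on the array labelled knockout, with a median of 0.36 (0.12 to 0.53), and 7 of the 8 were above their local median, all but Lsm4. The median was 0.27 after the loess correction and 0.16 once low values were set to the negative control level, the lowest of the alternatives tried. Lsm2 read 5.80 and 6.33 (0.53, local spread 0.34), Lsm7 6.33 and 6.82 (0.49, spread 0.30) and Lsm3 5.67 and 6.15 (0.48, spread 0.33). These were the largest differences of the ring, and each was about 1 local spread above the local median. Lsm5 (0.46), Lsm8 (0.26) and Lsm1 (0.21) were near background on both arrays, where the scatter of genes is wider (local spreads of 0.48, 0.40 and 0.43). Lsm6 (0.20) and Lsm4 (0.12) were close to other genes of their level. Without the 3 genes near background the median of the ring was 0.48.

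The Lsm genes outside these rings lay on both sides of 0. Lsm10 and Lsm11 encode the proteins that replace 2 Sm proteins in the U7 snRNP, which cuts the 3′ ends of replication-dependent histone mRNAs and takes no part in splicing. Both were near background and read lower on the array labelled knockout, Lsm10 with 4.27 and 3.55 (-0.72, local spread 0.45) and Lsm11 with 3.88 and 3.40 (-0.48, local spread 0.47). They were the lowest differences among the 57 genes, and once values below the negative control level are raised to it both become 0. Lsm14b, a cytoplasmic RNA granule protein gene, read 5.13 and 5.55 (0.41, local spread 0.37), while its paralogue Lsm14a differed by 0.10 and Lsm12 by 0.24. The median of the 5 was 0.10 (range -0.72 to 0.41), and -0.06 after the loess correction.

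The Prpf genes, named after yeast pre-mRNA processing mutants, ran from -0.23 to 1.10. Prpf6, which bridges U5 and the U4/U6 particle in the tri-snRNP, read 4.48 in wild type and 5.57 in the sample labelled knockout. The measured difference of 1.10 (local spread 0.37) was exceeded by 3 of the 500 nearest genes, but the wild-type value was under the negative control level, so the fold is at least 1.70. The U4/U6 protein gene Prpf4 read 3.87 and 4.40 and Prpf3 read 4.24 and 4.45, all near background, and Prpf31 differed by 0.17. Prpf8, the large U5 protein at the catalytic centre, read 7.74 on both arrays (difference 0.00). For the 5 tri-snRNP genes the median was 0.21 (range 0.00 to 1.10), or 0.18 after the loess correction. Once low values were set to the negative control level it was 0.0025, and 0.087 for the 2 genes above that level on both arrays, Prpf31 and Prpf8.

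Prpf38a, which acts when the tri-snRNP is activated, showed the second largest difference of all members. It read 4.55 in wild type, which is under the negative control level, and 5.53 in the other sample, a measured difference of 0.98 (local spread 0.37) and a fold of at least 1.65, and 10 of the 500 nearest genes were higher. Its relative Prpf38b read 7.46 and 7.52 (0.05). Prpf39, a U1-associated protein gene, read 4.94 and 5.57, a 1.55-fold difference (0.63, local spread 0.34) with both arrays above the negative control level, and 37 of the 500 nearest genes were higher. Prpf18, a factor of the second catalytic step, read 3.78 and 4.37, near background. Prpf4b, a kinase of the spliceosome, differed by 0.29, Prpf19, the ubiquitin ligase that heads the Prp19 complex, by -0.02, and Prpf40b, near background, by -0.23. The median of these 7 was 0.29 (-0.23 to 0.98), 0.13 after the loess correction, 0.053 once low values were set to the negative control level and 0.17 for the 4 genes above it on both arrays. Of all 12 Prpf genes 5 were more than 1 local spread above the local median and none more than 1 below it, where 15.9% and 15.3% of all genes were, but only Prpf39 of these 5 was above the negative control level on both arrays.

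The SR protein genes differed little, and nearly all in one direction. Srsf10, a splicing repressor when dephosphorylated, read 6.50 and 6.85 (0.35, local spread 0.28). Srsf6 read 6.70 and 6.95 (0.25) and Srsf5 7.81 and 8.05 (0.24). Srsf4 (0.21), Srsf1 (0.19), Srsf3 (0.19), Srsf11 (0.15), Srsf9 (0.11) and Srsf2 (0.05) followed, and Srsf12, near background, was at -0.06. The 10 genes had a median of 0.19 (0.05 to 0.25) and 9 of them were above 0, while none was more than 1 local spread from its local median in either direction. After the loess correction the median was 0.04 with 7 of 10 above 0. The plot of differences by role shows the SR and SF3A points close together and the Prpf and Lsm points spread out.

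**Figure D3:**
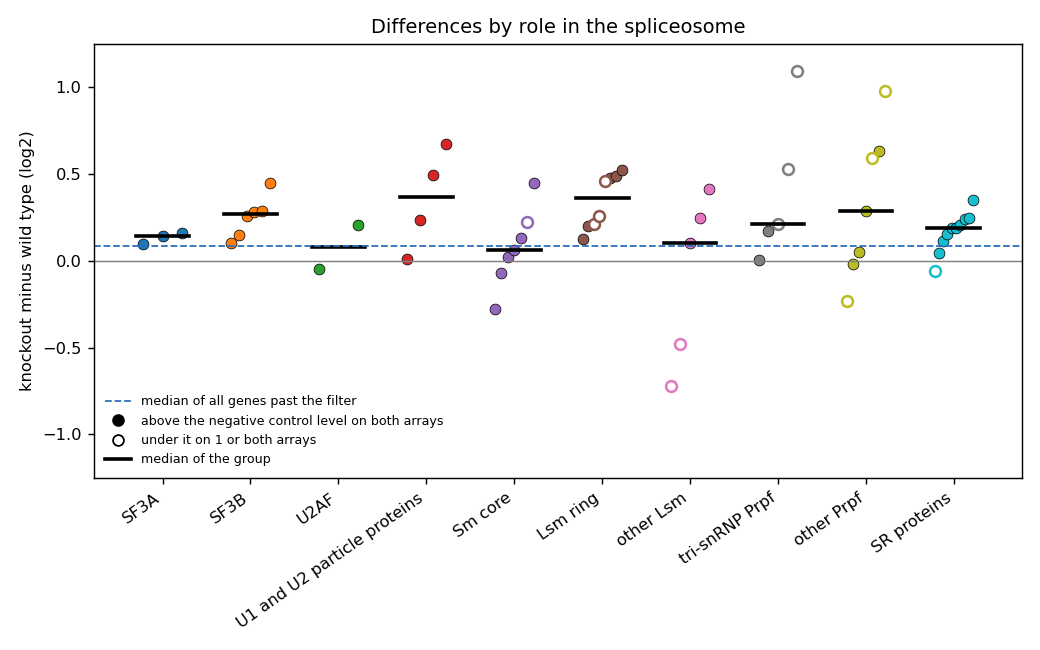
Difference (knockout minus wild type, log2) of each of the 57 genes by role; filled points were above the negative control level on both arrays, open points under it on 1 or both, black bars are group medians and the blue dashed line is the median of all genes past the filter (0.08). The Lsm ring and the U1 and U2 particle proteins have the highest medians (0.36 and 0.37), and the Sm core the lowest (0.06).

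The start regions of the genes that differed most in either direction are printed to show the sequence from which they are transcribed, for Prpf6, Prpf38a and Snrpa1 among the higher genes and Snrpd3 as the lowest gene above background. They were chosen after the values were seen. Each run holds 250 bases before and 50 bases from the transcription start of the RefSeq entry (build GRCm38.p6), on the strand of the gene. The windows are chr2:181601069-181601368 (plus strand) for Prpf6, chr4:108579287-108579586 (minus strand) for Prpf38a, chr7:66060086-66060385 (plus strand) for Snrpa1 and chr10:75517792-75518091 (plus strand) for Snrpd3. Capitals mark every match, on either strand, to 7 short motifs: the CCAAT box (CCAAT), an ETS core (CCGGAAG), the Sp1 GC box (GGGCGG), an NRF1 core (GCGCATGC), a YY1 core (AAGATGG), the TATA box (TATAAA) and the cAMP response element (TGACGTCA).
Prpf6: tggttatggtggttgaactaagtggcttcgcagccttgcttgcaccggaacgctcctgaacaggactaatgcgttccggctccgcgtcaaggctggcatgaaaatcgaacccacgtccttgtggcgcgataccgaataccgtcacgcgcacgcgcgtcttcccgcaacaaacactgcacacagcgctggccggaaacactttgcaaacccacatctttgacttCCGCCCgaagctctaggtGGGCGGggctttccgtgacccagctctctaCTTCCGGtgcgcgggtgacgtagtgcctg
Prpf38a: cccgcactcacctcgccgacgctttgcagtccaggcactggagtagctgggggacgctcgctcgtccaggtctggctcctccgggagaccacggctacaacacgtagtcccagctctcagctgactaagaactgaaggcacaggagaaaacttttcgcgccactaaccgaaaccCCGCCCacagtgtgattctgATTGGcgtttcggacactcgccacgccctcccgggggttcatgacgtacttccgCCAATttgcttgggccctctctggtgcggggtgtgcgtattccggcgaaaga
Snrpa1: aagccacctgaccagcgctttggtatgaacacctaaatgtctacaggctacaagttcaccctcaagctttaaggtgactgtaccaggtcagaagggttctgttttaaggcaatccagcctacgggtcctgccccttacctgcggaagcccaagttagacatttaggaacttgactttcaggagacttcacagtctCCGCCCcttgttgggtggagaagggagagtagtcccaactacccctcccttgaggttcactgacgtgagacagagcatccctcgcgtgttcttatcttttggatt
Snrpd3: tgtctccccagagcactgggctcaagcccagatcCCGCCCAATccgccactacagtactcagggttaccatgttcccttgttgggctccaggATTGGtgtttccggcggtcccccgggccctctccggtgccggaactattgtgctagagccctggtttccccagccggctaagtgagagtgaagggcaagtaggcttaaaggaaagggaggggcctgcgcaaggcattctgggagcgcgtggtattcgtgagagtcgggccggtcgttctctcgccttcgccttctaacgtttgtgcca

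In Prpf6 GC boxes begin 27 bases before the start on the opposite strand and 9 bases before it on the same strand. An ETS core begins at base 22 of the transcript, on the opposite strand. Prpf38a has a CCAAT box 56 bases before the start on the opposite strand and another 2 bases before it on the same strand. Its GC box, 76 bases before the start, is on the opposite strand. Snrpa1 has 1 match, a GC box 55 bases before the start on the opposite strand. In Snrpd3 the matches lie further up. A GC box on the opposite strand and a CCAAT box on the same strand overlap by 2 bases at 216 and 212 bases before the start. Another CCAAT box, on the opposite strand, lies 158 bases before it. No TATA box, NRF1 core, YY1 core or cAMP response element matched in these 4 windows. The GC box is in all 4, so the higher genes and the lower one were not set apart by it.

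Start regions of 48 of the 57 members were used from the RefSeq table of start regions, matched by gene identifier, as 59 windows because some genes have several starts; those of Lsm1, Lsm12, Lsm4, Prpf18, Sf3b4, Sf3b5, Snrpb, Snrpd1 and U2af2 were not used here. The ETS core was in 21 of the 59 windows (35.6%), against 16.9% of the 11247 windows of genes past the level filter and 8.86% of all 32851 windows used here. Windows on 1 chromosome were left out throughout, and those of genes past the filter covered 8868 of the 10881 genes. The GC box was in 67.8% against 60.3% and 35.7%, and the CCAAT box in 42.4% against 37.4% in both. The TATA box was in 6.78% against 7.66% and 13.6%, the NRF1 core in 6.78% against 4.89% and 2.71%, the YY1 core in 6.78% against 7.08% and 6.34%, and the cAMP response element in 5.08% against 3.0% and 1.79%. Median GC content was 60.3% in the members and in the genes past the filter, and 52.7% over all windows. The ratio of observed to expected CpG was 0.94 in the members, 0.74 in the genes past the filter and 0.38 over all windows. The members thus start in CpG-rich sequence, with the ETS core the motif whose share stood furthest from that of genes past the filter. Those genes include the members and were not matched to them on level. The median wild-type level was 6.09 for the 57 members and 4.85 for all genes past the filter. Both the ETS share and the CpG ratio already rose from all windows to genes past the filter. Whether the contrast is particular to splicing genes was not tested. Windows of 1 gene can overlap, a match is a description and not a binding site, and no test was made.

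Other genes of the splicing pathway were described through 5 lists, written with earlier results of these data known. Genes above 0 made up 70.0%, 67.6%, 73.1%, 66.7% and 83.3% of the lists, in the order given below. Of all genes past the filter 58.2% lay above 0, and of those above the negative control level on both arrays 66.6% did. These shares were not tested against each other. The 30 measured snRNP and tri-snRNP genes outside the name patterns had a median of 0.18 (0.02 to 0.26; 0.07 after the loess correction, 0.052 once low values were set to the negative control level), with 21 above 0. The largest differences were Htatsf1 (1.04, near background), the U2-associated Rbm17 (0.85, at least 1.77-fold higher) and the minor spliceosome gene Zmat5 (0.65, at least 1.21-fold higher). The 37 genes of the Prp19 complex, the later steps and the exon junction complex had a median of 0.17 (0.08 to 0.24; 0.03 after the correction, 0.082 with low values so set), with 25 above 0. Their largest differences were near background for Cwc25 (-0.81) and Cdc5l (0.80), while Bud13 was at 0.73 and at least 1.04-fold higher.

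The 26 genes of SR-related proteins, SR kinases and nuclear speckles had a median of 0.17 (0.03 to 0.33; 0.03 after the correction), with 19 above 0. Bclaf1 read 6.15 and 6.76 (0.61), Tra2a, a splicing activator, 6.84 and 7.38 (0.54), and the SR protein kinase gene Clk3 5.59 and 6.12 (0.53). Each of these 3 was above the negative control level on both arrays and more than 1 local spread above the local median. The 39 genes of hnRNPs and other regulators past the filter, of 40 measured, had the lowest median, 0.05 (-0.05 to 0.19). It was -0.04 when centred or with quantile normalization and -0.09 after the loess correction, and 26 of the 39 were above 0. Mbnl3 (0.51), Celf2 (0.49) and Syncrip (0.46) differed most. The snRNP assembly genes, 12 past the filter of 14 measured, had a median of 0.28 (0.02 to 0.49; 0.15 after the correction, 0.0090 with low values so set), with 10 above 0. Their largest differences were near background: Smn1, the survival motor neuron gene (0.80), Gemin6 (0.77) and Phax (-0.50). Among genes of the 5 lists past the level filter the measured value of Htatsf1 alone was 2-fold higher, with both arrays near background, so that no fold is called, and no gene was 2-fold lower.

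**Figure D4:**
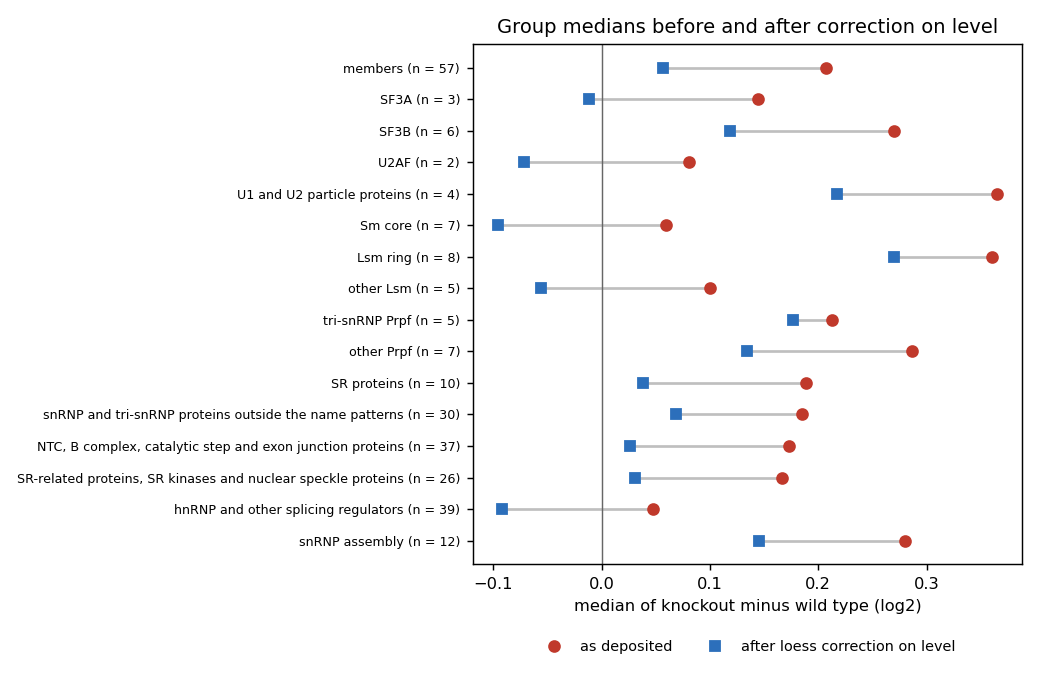
Median difference (knockout minus wild type, log2) of the 57 members, the 10 role groups and the 5 other splicing lists, as deposited (red circles) and after a loess correction on mean level (blue squares), with the number of genes past the filter. The correction moves each median to the left; the medians of SF3A, U2AF, the Sm core, the other Lsm genes and the hnRNP list pass below 0, and those of the Lsm ring (0.27) and the U1 and U2 particle proteins (0.22) stay highest.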

How the data were processed

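Gene expression was measured on 2 Affymetrix arrays, 1 per genotype, and the table deposited by the authors holds log2 values from RMA, run in Affymetrix Power Tools per the submitters' processing notes. RMA corrects background, equalises the arrays' distributions and summarises probes, which hides any difference in RNA content between cells. For versions and the genome build, the sources used here give nothing. The design text names another array design than the one whose annotation matches the probe sets, and gene names rest on that annotation. The number of arrays limits the precision.

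From these values the difference, knockout minus wild type, was taken per gene at its probe set of highest mean, with no further scaling. All 57 gene identifiers were found in the RefSeq gene table (GRCm38.p6), which is separate from the table of start regions. The local median and spread come from the 500 genes nearest in mean level. Members, role groups, lists and alternatives were chosen with earlier results of these data known. Both array values are given for the 3 members of each role group with the largest differences and for any past 2-fold; of each other list the 3 largest are named. Alternatives were other level filters, centring, loess (span 0.3), quantile normalization, values raised to the negative control level, means of probe sets and other thresholds. A filter on both arrays and the Y-linked list were added after seeing the data. Python 3.11.15, numpy 2.4.6, pandas 2.3.3 and statsmodels 0.14.6 were used, and the scripts were tested on simulated data.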

Additional observations from a re-analysis of the deposited data

How the results depend on the processing

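With 1 array per genotype no array could be left out, and no result has a test. No paired analysis was possible because each genotype has 1 array. Of 180 medians recomputed under alternatives, 155 stayed inside the interval or range of the deposited values and on the same side of 0. Some of these could not move. Each member has 1 probe set and all passed the level filter, so means of probe sets and no level filter return the members' deposited medians. The smallest groups, with a range in place of an interval, were judged against that full range. The count is therefore not a measure of stability. The members' median of 0.21 was 0.12 when centred on the median, 0.056 after the loess correction and 0.084 with quantile normalization. In the same order the median was 0.058, -0.012 and -0.015 for SF3A, -0.0059, -0.071 and -0.062 for U2AF, -0.027, -0.096 and -0.091 for the Sm core, -0.039, -0.092 and -0.044 for hnRNPs and other regulators, and 0.071, 0.026 and 0.051 for all Sf3a and Sf3b genes. After the loess correction it was 0.038 for SR proteins, -0.0073 for all Snrp genes, and, with the quantile-normalized value second, -0.056 and -0.048 for the other Lsm genes and 0.026 and 0.045 for the Prp19 complex and later steps. When low values were raised to the negative control level that of snRNP assembly was 0.0090. The count of members at least 2-fold higher, 1 as deposited, was 0 with raised values, among genes above that level on both arrays and at 3 local spreads; at 1.5-fold 5 were higher and 1 lower. Over all genes, 170 higher and 85 lower became 35 and 25 with the filter at the 75th percentile, 38 and 25 with the filter at the negative control level, 19 and 23 with raised values, 15 and 16 above it on both arrays, and 997 and 561 at 1.5-fold; 137 were lower with no level filter and 47 higher at 3 local spreads. Of 241 values of named members, 237 moved by less than 1 local spread. Many of these could not move. Level filters and means of probe sets leave the difference of a gene with 1 probe set as it was. Lsm10, Lsm11, Prpf18 and Prpf4 became 0 with raised values.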
